A study of Mus musculus with 27 samples.

Results

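The 5 chemokine receptors Ccr1, Ccr2, Ccr7, Cxcr4 and Cx3cr1 were followed across bone marrow-derived macrophages, cells that differentiate in culture when marrow is given CSF-1, a growth factor. They were taken by gene symbol, as receptors of myeloid cells, from the 19069 named genes of the deposited expression table, and all 5 were present. Marrow was taken from the femora and tibiae of C57BL/6 mice. The marrow cells received 5 Gy of protons as a FLASH beam (an ultra-high dose rate), 5 Gy as a standard proton beam, or no irradiation, and only then were given 10 ng/ml CSF-1 for 7 days. The last 2 days were spent in 100 ng/ml LPS (labelled M1), 20 ng/ml IL-4 (M2) or control medium (M0). Each of the 9 groups had 3 libraries, 27 in all. Every group shared the CSF-1 culture, and irradiation came before differentiation. The labels do not say whether the 3 libraries of a group came from separate mice or cultures, so that each p-value reflects how these libraries scatter, which may be technical. Libraries with the same replicate number share a numeric code in their titles across all 9 groups, and the labels do not say what that code marks.

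Chemokine receptors are G protein-coupled receptors that steer leukocytes along gradients of small secreted chemokines. Ccr2, the receptor for Ccl2, Ccl7 and Ccl12, brings monocytes out of the bone marrow and into inflamed tissue, whereas Cxcr4 holds cells in the marrow through Cxcl12. Ccr1 binds Ccl3, Ccl5 and related ligands, Cx3cr1 binds the membrane-tethered chemokine Cx3cl1 and marks patrolling monocytes and several resident macrophages, and Ccr7 guides mature dendritic cells and lymphocytes to lymph nodes through Ccl19 and Ccl21.

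Promoters are shown for the 4 receptors with an entry in the RefSeq promoter table of mouse build GRCm38.p6, so that the start regions of receptors with different patterns below can be set side by side. Each runs 5′ to 3′ on the gene's strand from 250 bases before the annotated start to 50 after it. Capitals mark matches to the motifs named under the sequences. Ccr1 is at chr9:123968643-123968942 (minus strand), Ccr2 at chr9:124101933-124102232 (plus strand), Cxcr4 at chr1:128592250-128592549 (minus strand) and Cx3cr1 at chr9:120068247-120068546 (minus strand).
Ccr1: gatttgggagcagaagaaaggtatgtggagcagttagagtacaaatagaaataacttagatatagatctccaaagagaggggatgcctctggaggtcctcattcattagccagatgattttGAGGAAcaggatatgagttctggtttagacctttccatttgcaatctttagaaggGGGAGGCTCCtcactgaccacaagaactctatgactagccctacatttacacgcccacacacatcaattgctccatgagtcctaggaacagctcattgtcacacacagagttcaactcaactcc
Ccr2: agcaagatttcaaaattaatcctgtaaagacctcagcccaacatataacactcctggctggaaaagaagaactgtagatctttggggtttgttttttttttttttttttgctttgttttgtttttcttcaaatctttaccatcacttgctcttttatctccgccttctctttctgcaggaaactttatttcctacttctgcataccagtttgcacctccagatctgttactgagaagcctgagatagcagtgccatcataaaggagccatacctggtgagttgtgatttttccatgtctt
Cxcr4: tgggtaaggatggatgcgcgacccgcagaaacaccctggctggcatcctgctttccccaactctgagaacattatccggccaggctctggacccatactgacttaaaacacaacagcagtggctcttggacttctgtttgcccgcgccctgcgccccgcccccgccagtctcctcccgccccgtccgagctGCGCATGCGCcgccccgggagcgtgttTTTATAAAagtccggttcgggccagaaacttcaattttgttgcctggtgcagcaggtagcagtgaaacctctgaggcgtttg
Cx3cr1: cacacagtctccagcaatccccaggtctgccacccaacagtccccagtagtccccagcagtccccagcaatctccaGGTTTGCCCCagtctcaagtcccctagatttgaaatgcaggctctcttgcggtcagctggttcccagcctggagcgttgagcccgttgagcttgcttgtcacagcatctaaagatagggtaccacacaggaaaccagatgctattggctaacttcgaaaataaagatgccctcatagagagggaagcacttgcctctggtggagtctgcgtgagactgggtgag
Motifs were searched on both strands. GAGGAA, the core bound by the macrophage factor PU.1 and other ETS proteins, was found in Ccr1 at -129 and is held by 28.3% of the 32851 promoters of this length. A loose form of the NF-kappaB site, 3 G and 2 C with any 5 bases between, was found in Ccr1 at -74 and in Cx3cr1 at -174 on the other strand, and is held by 50.8% of them. The interferon-stimulated response element (3.44% of promoters), the C/EBP form TTGCNNAA (10.8%) and the STAT forms, TTC and GAA with 3 (8.3%) or 4 (6.95%) bases between, had no match in these 4 windows. A TATA box, TATAAA, which 13.6% of promoters hold, and the palindromic NRF1 site (0.971%) were added to the search after the sequences were seen. Cxcr4 has the first at -30 on its own strand and at -32 on the other, with the matches overlapping, and the second at -59. The windows also differ in base composition. Cxcr4 has 20 CpG dinucleotides and 59.3% G+C, Cx3cr1 has 5 and 54.3%, and Ccr1 and Ccr2 have 1 each with 44.0% and 38.0%, where the median promoter has 7 and 52.7%. Matches describe these letters only.

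Libraries held assigned reads of 20.68 to 25.84 ×10⁶, and 1 read was worth 0.0373 to 0.0487 CPM. The worth of 1 read was taken as the most frequent nonzero value below 1 CPM in each library. A fraction of that value was used where it fitted the low values better. The p53 target Cdkn1a had 478 to 858 CPM in the 18 irradiated libraries and 168 to 353 CPM in the 9 non-irradiated ones, without overlap. LPS and IL-4 response genes placed each library on an axis where 0 is non-irradiated control medium and 1 the non-irradiated treated group. By these axes 22 libraries followed their labels and 5, all replicate 1 of irradiated groups and so all with the same title code, did not. The libraries labelled FLASH M0 and standard M1 lay at 0.709 and 0.771 on the IL-4 axis. Those labelled FLASH M2 and standard M2 lay at 0.94 and 0.96 on the LPS axis, and the one labelled FLASH M1 near 0 on both, with -0.149 for LPS and -0.182 for IL-4. All 27 were kept under their labels, and results are also given without these 5. Markers of macrophages were high throughout, with a sum over 15 of 16 listed genes of 37500 to 56000 CPM in irradiated and 28400 to 49800 CPM in non-irradiated libraries. The sums differed by state. For FLASH, standard and non-irradiated libraries they were 40500 to 56000, 49200 to 55200 and 40700 to 41900 CPM in control medium. In LPS they were 41000 to 49200, 38900 to 44100 and 35500 to 49800 CPM. In IL-4 they were 38300 to 42000, 37500 to 39600 and 28400 to 31300 CPM, higher after irradiation without overlap. Without the library at odds, FLASH M0 libraries had 56000 CPM.

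Levels are CPM (read counts scaled to library size, after the authors' TMM scaling), and fold changes are differences of means of log2(CPM + 0.5) from 1 limma model of all 27 libraries, given with their standard error. A gene was called, and is said to have risen or fallen, at a Benjamini-Hochberg adjusted p below 0.05 over the 13297 genes that reached 1 CPM in 3 or more libraries. All 5 receptors passed that filter. Ccr1, Ccr2 and Cxcr4 reached 1 CPM in all 27 libraries, Cx3cr1 in 24 and Ccr7 in 12, and for Ccr7 these 12 were non-irradiated or carried LPS response genes.

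**Figure D1:**
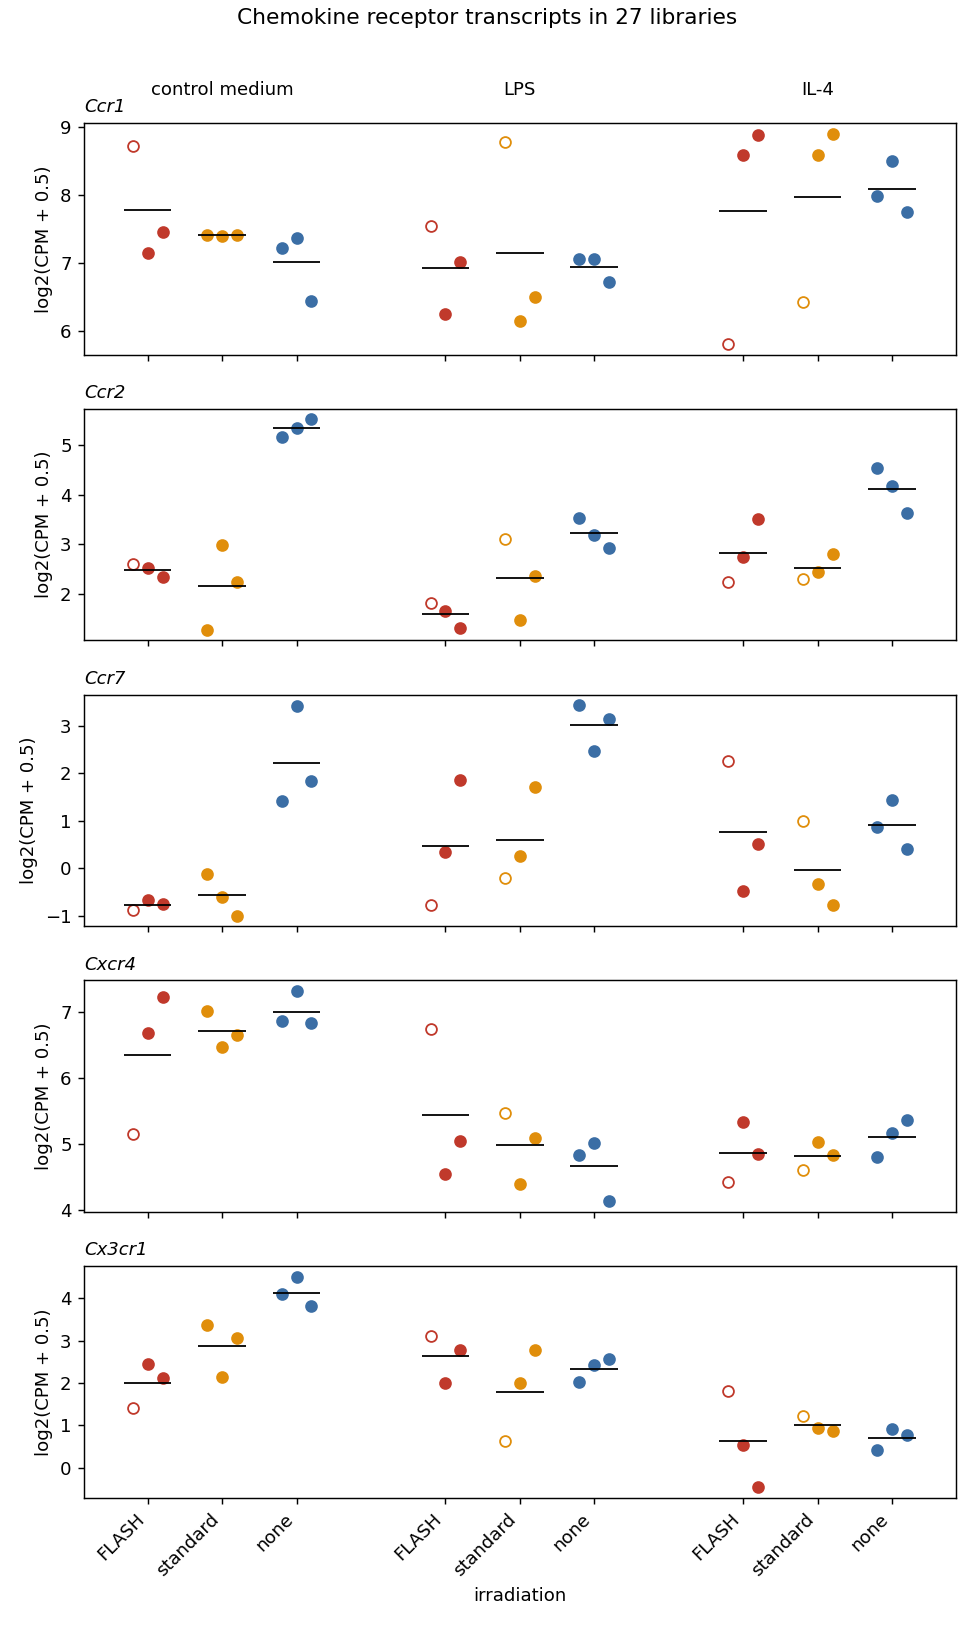
Each panel shows 1 receptor as log2(CPM + 0.5) in every library, with the 3 states from left to right and FLASH, standard and non-irradiated libraries side by side; lines are group means and open circles are the 5 libraries that go against their labels. In control medium the irradiated libraries lie below the non-irradiated ones for Ccr2, Ccr7 and Cx3cr1, whereas Cxcr4 overlaps, and the open circles account for the widest gaps within groups for Ccr1.

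Irradiated macrophages carried less transcript of Ccr2, the inflammatory monocyte receptor, and of Ccr7, the lymph-node homing receptor, in both beam modes. Averaged over the 3 states, Ccr2 changed by -1.93 ± 0.23 (log2, SE) after FLASH and -1.90 ± 0.23 after standard protons, and Ccr7 by -1.89 ± 0.40 and -2.06 ± 0.40. Ccr1 (0.14 and 0.16), Cxcr4 (-0.04 and -0.08) and Cx3cr1 (-0.64 and -0.50) were not called in that average over all 27 libraries. With the 5 libraries left out, Cx3cr1 fell after FLASH in that average (-0.82, limma adjusted p = 0.0188), as it did with replicates 2 and 3 only (-0.93, 0.0327), but it was not called when the replicate number was also a block. Against the count of 2 of 5 receptors lower in each mode over all 27 libraries, 4.47% of all genes tested fell after FLASH and 4.52% after standard protons. Both modes share the same non-irradiated libraries, so their values are not independent of each other.

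Ccr2 was highest in non-irradiated macrophages kept in control medium. It had 5.58, 5.19 and 4.55 CPM in FLASH M0 libraries and 1.91, 7.38 and 4.24 CPM in standard M0 libraries, against 35.6, 40.5 and 45.5 CPM in non-irradiated M0 libraries. Every irradiated library of this state lay below every non-irradiated one. The log2 change was -2.87 ± 0.40 for FLASH (limma adjusted p = 0.000289) and -3.19 ± 0.40 for standard protons (adjusted p = 7.07e-05). Without the 5 libraries the values were -2.93 and -3.19, and both calls held when any single library of the compared groups was left out.

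In LPS, Ccr2 fell after FLASH and was not called after standard protons. FLASH M1 libraries had 2.99, 2.62 and 1.98 CPM and standard M1 libraries 8.06, 2.27 and 4.61 CPM, against 11.1, 8.66 and 7.06 CPM in non-irradiated M1 libraries. The FLASH libraries lay below all non-irradiated ones, while the standard library with 8.06 CPM, 1 of those 5, overlapped them. Ccr2 fell by 1.63 ± 0.40 after FLASH (limma adjusted p = 0.0299). The standard value, -0.91 ± 0.40, was not called (adjusted p = 0.241) and was -1.30 without the 5 libraries (adjusted p = 0.0649). Without the 5 libraries the FLASH value was -1.74 and called (adjusted p = 0.0169). The FLASH call was lost when any 1 of the 6 compared libraries was left out (adjusted p from 0.0531 to 0.136), with the compared groups alone (0.0561), and with the replicate number as a block (0.0595).

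In IL-4, Ccr2 fell after standard protons and was not called after FLASH. Ccr2 had 4.2, 6.23 and 10.9 CPM in FLASH M2 libraries and 4.39, 4.91 and 6.48 CPM in standard M2 libraries, against 22.7, 17.5 and 11.8 CPM in non-irradiated M2 libraries. The groups did not overlap, although the highest FLASH and the lowest non-irradiated library were close. The change was -1.28 ± 0.40 for FLASH, which was not called (limma adjusted p = 0.127), and Ccr2 fell by 1.60 ± 0.40 for standard protons (adjusted p = 0.0473). The standard call was lost when any of 5 of the 6 libraries was left out, with adjusted p up to 0.244, and under 8 of the other settings tried, among them the replicate block (0.0924).

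Ccr7 was close to the detection floor in irradiated macrophages in control medium, where the FLASH libraries held 1, 3 and 2 Ccr7 reads and the standard libraries 9, 4 and 0, against 56, 272 and 71 in the non-irradiated libraries. As CPM these were 0.0395, 0.124 and 0.092 in FLASH M0, 0.42, 0.16 and 0 in standard M0, and 2.15, 10.1 and 3.09 in non-irradiated M0 libraries. The lowest non-irradiated library was thus above the highest irradiated one, and the non-irradiated group was itself spread widely, with replicate 2 far above the others. The summed reads, 6 and 13 against 399, gave ratios per assigned read of 0.0149 (95% exact interval 0.00542 to 0.0326) after FLASH and 0.0347 (0.0183 to 0.06) after standard protons, intervals that cover counting error only. A library at 0 here allows up to 3 reads, or 0.146 CPM at the shallowest depth. Ccr7 fell on the log2(CPM + 0.5) scale, which understates a change this near 0, with values of -2.99 ± 0.70 (limma adjusted p = 0.0234) and -2.79 ± 0.70 (adjusted p = 0.0391). These 2 calls each ended when any of 5 of the 6 libraries was left out, with adjusted p up to 0.116 and 0.183, but were present with the 5 libraries left out (0.00842 and 0.00339). The standard call was also lost with the replicate block (0.0734) and with a filter of 5 CPM (0.0541).

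With LPS, Ccr7 was not called in either mode. It had 0.0867, 0.767 and 3.11 CPM in FLASH M1 libraries and 0.36, 0.702 and 2.77 CPM in standard M1 libraries, against 10.3, 5.01 and 8.31 CPM in non-irradiated M1 libraries. All 6 irradiated libraries were below all 3 non-irradiated ones. The log2 changes, -2.54 ± 0.70 and -2.43 ± 0.70, did not pass the threshold (limma adjusted p = 0.0554 and 0.0667), and reached it with a pseudocount of 2 or when replicate 3 of the irradiated group was left out (0.0227 for FLASH, 0.0491 for standard). In IL-4 the groups overlapped. Ccr7 had 4.28, 0.216 and 0.912 CPM in FLASH M2 and 1.48, 0.291 and 0.0876 CPM in standard M2 libraries, against 1.33, 2.22 and 0.828 CPM in non-irradiated M2 libraries, and neither mode was called. The log2 changes in IL-4 were -0.15 ± 0.70 for FLASH and -0.95 ± 0.70 for standard protons. The 2 highest irradiated values, 4.28 and 1.48 CPM, were in the libraries that carry LPS response genes against their IL-4 labels. Without the 5 libraries the changes in IL-4 were -0.90 and -1.46, uncalled (limma adjusted p = 0.47 and 0.193). The standard libraries then lay below all non-irradiated ones, as did 17.6% of genes, and FLASH still overlapped. In LPS they were -1.92 and -2.02, also uncalled (0.0705 and 0.0521).

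Cx3cr1, the fractalkine receptor, had a call after irradiation in control medium. It had 2.17, 4.98 and 3.82 CPM in FLASH M0 libraries and 9.84, 3.93 and 7.9 CPM in standard M0 libraries, against 16.5, 22.2 and 13.5 CPM in non-irradiated M0 libraries. Neither irradiated group overlapped the non-irradiated one. The change of -2.14 ± 0.51 after FLASH was called (limma adjusted p = 0.0267), and that of -1.27 ± 0.51 after standard protons was not (adjusted p = 0.244). The FLASH call was lost on leaving out any of 5 of the 6 libraries, with adjusted p up to 0.128, with the replicate block (0.0531) and with a pseudocount of 0.1 (0.0686), whereas without the 5 libraries at odds both modes were called, at -1.85 (adjusted p = 0.00986) and -1.27 (0.0311), where 2.88% and 4.08% of genes fell. The standard value stayed uncalled in 17 of 18 alternatives, among them replicates 2 and 3 only, and the block without the 5 libraries.

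In LPS and IL-4 the Cx3cr1 groups overlapped. FLASH M1 had 8.15, 3.47 and 6.37 CPM and standard M1 had 1.04, 3.47 and 6.31 CPM, against 3.54, 4.84 and 5.39 CPM in non-irradiated M1 libraries. FLASH M2 had 3.03, 0.952 and 0.228 CPM and standard M2 had 1.83, 1.41 and 1.31 CPM, against 0.84, 1.39 and 1.2 CPM in non-irradiated M2 libraries. No call was made in either state, the log2 changes ranging from -0.54 to 0.30, and several of these small values changed sign with the setting.

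Cxcr4, the marrow retention receptor, did not pass the test in any irradiation comparison. In control medium it had 35.2, 102 and 150 CPM after FLASH and 129, 88.4 and 100 CPM after standard protons, against 116, 159 and 114 CPM without irradiation. The value of 35.2 CPM belongs to the FLASH library at odds with its label, and without the 5 libraries the differences were -0.05 for FLASH and -0.29 for standard protons. In LPS it had 107, 22.9 and 32.5 CPM after FLASH and 44, 20.6 and 33.8 CPM after standard protons, against 28.2, 32 and 17.1 CPM without irradiation. The library with 107 CPM is the one labelled FLASH M1 that lacks the LPS response. In IL-4 it had 21.1, 40.1 and 28.3 CPM after FLASH and 23.9, 32.3 and 28.1 CPM after standard protons, against 27.5, 35.5 and 40.6 CPM without irradiation. The groups overlapped in all 3 states. The 95% interval of the difference averaged over the states was -0.61 to 0.54 for FLASH and -0.66 to 0.49 for standard protons.

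Ccr1, the inflammatory CC receptor, was likewise not called. In control medium it had 420, 141 and 175 CPM after FLASH and 170, 168 and 169 CPM after standard protons, against 148, 164 and 86.4 CPM without irradiation. The 3 standard libraries were above the 3 non-irradiated ones by a narrow margin, as were 13.9% of all genes tested. The library with 420 CPM was the FLASH M0 library with IL-4 response genes. In LPS Ccr1 had 186, 75.2 and 128 CPM after FLASH and 441, 70.5 and 89.8 CPM after standard protons, against 133, 132 and 105 CPM without irradiation. In IL-4 it had 55.4, 384 and 471 CPM after FLASH and 85.7, 386 and 479 CPM after standard protons, against 254, 363 and 215 CPM without irradiation. The groups overlapped in both, with replicate 1 of the irradiated groups far from replicates 2 and 3 in IL-4. Without the 5 libraries, Ccr1 in IL-4 was higher after irradiation, by 0.65 for FLASH and 0.67 for standard protons, and in LPS the differences were -0.32 and -0.62, none of them called (limma adjusted p from 0.191 to 0.562); with all 27 libraries the signs in IL-4, and in LPS for standard protons, were the opposite.

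**Figure D2:**
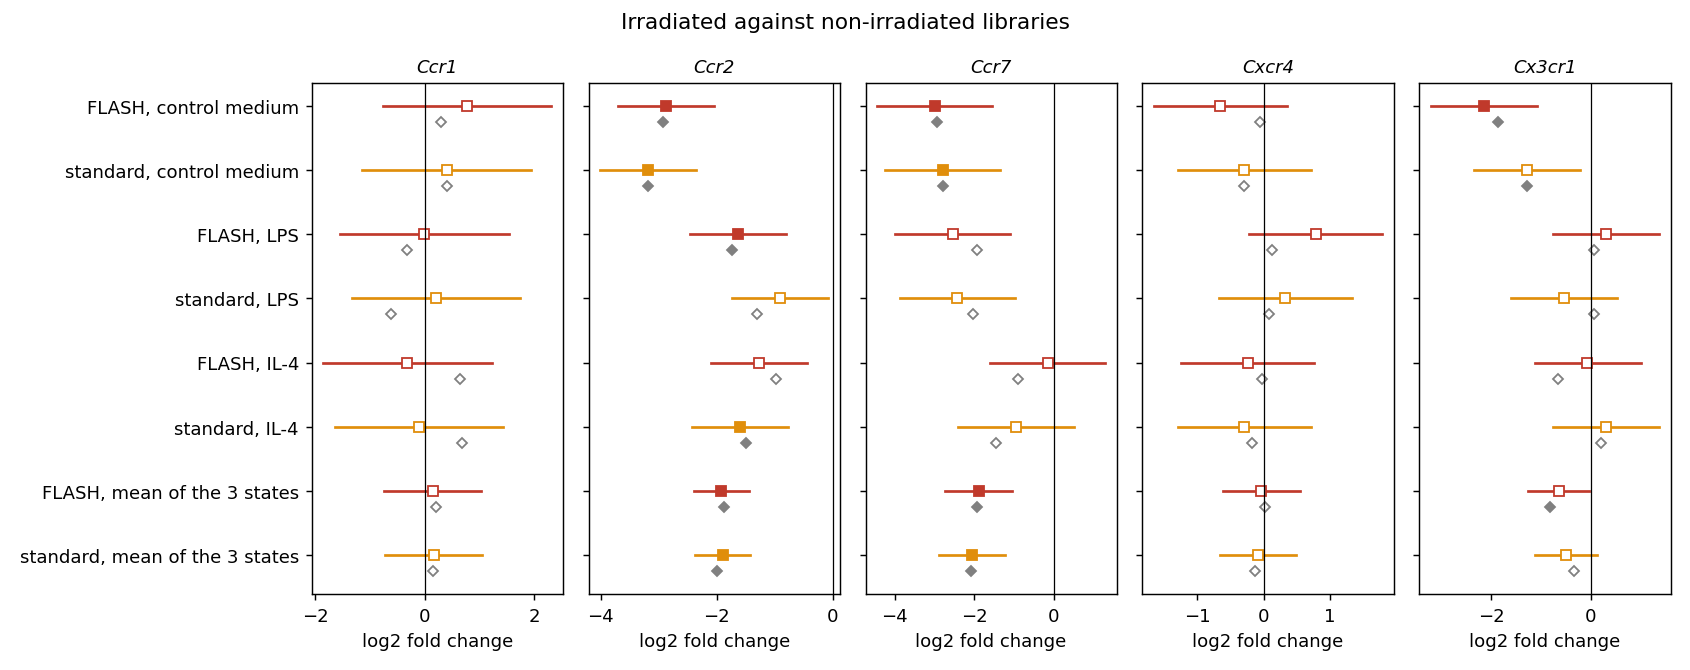
Squares are log2 fold changes of irradiated over non-irradiated libraries with 95% intervals from limma over all 27 libraries, for each beam mode and state and for the mean of the 3 states; gray diamonds are the values without the 5 libraries, and filled symbols passed an adjusted p of 0.05. Ccr2 lies below 0 in all 8 comparisons and Ccr7 is called in control medium and in the mean, while Cxcr4 and Ccr1 scatter around 0.

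By single state, 3 of 5 receptors fell after FLASH in control medium, where 1.62% of genes tested fell, and 2 of 5 after standard protons, where 1.35% did. In LPS the counts were 1 and 0 receptors (1.8% and 1.62% of genes), and in IL-4 0 and 1 (0.662% and 0.797%). By range alone, all 3 irradiated libraries lay below all 3 non-irradiated ones for 3 receptors in control medium in each mode, as did 13% of genes tested after FLASH and 14.9% after standard protons. The same was true of Ccr2 and Ccr7 in LPS after FLASH (13.4% of genes), of Ccr7 in LPS after standard protons (14.2%), and of Ccr2 in IL-4 after FLASH (8.69%) and after standard protons (9.9%).

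No receptor differed between FLASH and standard protons in any state or in the mean, where limma called 0 genes of 13297 and 227 to 397 genes had an unadjusted p below 0.05 in the 4 comparisons. In the mean of the states the FLASH minus standard difference was -0.03 for Ccr2 (95% interval -0.50 to 0.45), 0.16 for Ccr7 (-0.68 to 1.0), -0.13 for Cx3cr1 (-0.75 to 0.48), 0.05 for Cxcr4 (-0.53 to 0.63) and -0.02 for Ccr1 (-0.91 to 0.87). Differences inside these intervals cannot be told from 0 with 3 libraries a group. Over all 27 libraries, the smallest unadjusted p of any receptor in a single state was for Ccr2 in LPS. It had 2.99, 2.62 and 1.98 CPM after FLASH and 8.06, 2.27 and 4.61 CPM after standard protons. Those groups overlapped (-0.72 ± 0.40, limma unadjusted p = 0.0831). The library with 8.06 CPM is 1 of the 5 at odds with their labels. Without the 5 the Ccr2 value was -0.44 ± 0.44 (limma unadjusted p = 0.332). The smallest was then for Cx3cr1 in IL-4 (-0.86 ± 0.42, limma unadjusted p = 0.0564). It had 0.952 and 0.228 CPM after FLASH and 1.41 and 1.31 CPM after standard protons. In that fit limma also called 0 genes of 13297 in the 4 comparisons.

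Transcripts listed as markers of other cells of the marrow also differed with irradiation. In control medium the summed level of 12 monocyte marker genes was 85.3 to 151 CPM after FLASH and 96.0 to 138 CPM after standard protons, against 298 to 592 CPM without irradiation, and the FLASH range was 133 to 151 CPM without the library at odds with its label. In LPS it was 153 to 1080, 62.0 to 780 and 1420 to 1440 CPM, and in IL-4 65.9 to 924, 55.4 to 899 and 61.9 to 128 CPM, in FLASH, standard and non-irradiated libraries, with none of the 12 being at 0 in every library of a group. Single libraries at odds with their labels set the low ends in LPS and the high ends in IL-4 of both irradiated groups. With them left out the sums were 706 to 1080 and 620 to 780 CPM in FLASH and standard M1, and 65.9 to 105 and 55.4 to 71.5 CPM in FLASH and standard M2 libraries. The sum of 14 dendritic cell markers in control medium was 172 to 263 and 255 to 273 CPM, against 346 to 405 CPM, and in LPS 215 to 299 and 196 to 258 CPM, against 421 to 445 CPM. In IL-4 that sum was 180 to 278 and 159 to 235 CPM, against 232 to 417 CPM, and the ranges overlapped. Of 12 listed B lineage genes 10 were in the table, and in control medium they summed to 9.36 to 17.6 (16.8 to 17.6 without the library at odds) and 8.68 to 23.8 CPM, against 119 to 150 CPM, with Vpreb3 and Ighd at 0 in all 3 FLASH M0 and Vpreb3 in all 3 standard M0 libraries. In the mean of the states 4 and 5 of 12 monocyte markers tested fell after FLASH and standard protons, 4 and 5 of 12 dendritic cell markers, 8 and 7 of 8 B lineage markers, 11 and 11 of 17 neutrophil markers, 5 and 3 of 7 T and NK cell markers and 5 and 5 of 11 progenitor markers, with 0 higher. Of all genes tested 4.47% and 4.52% fell, and 433 and 447 of 13297 genes rose. With the 5 libraries left out, the counts lower were 6 and 8 monocyte, 10 and 9 dendritic cell, 8 and 8 B lineage, 13 and 13 neutrophil, 5 and 3 T and NK cell and 6 and 5 progenitor markers, and 1 progenitor marker was higher in each mode. In that fit 6.96% and 9.81% of all genes fell, and 7.34% and 8.11% rose. Ly6c2, a surface marker of inflammatory monocytes, fell (-2.32 and -2.66), and Kmo, which the list holds as a dendritic cell gene, also fell (-1.61 and -1.54). The summed levels of neutrophil, progenitor and T and NK cell lists were 131 to 166, 24.2 to 39.5 and 42.9 to 112 CPM in FLASH M0 libraries, 120 to 149, 23.7 to 35.2 and 59.9 to 103 CPM in standard M0 libraries, and 723 to 1430, 33.5 to 38.6 and 25.4 to 181 CPM in non-irradiated M0 libraries. The monocyte sum was led by Sorl1 in every control medium group and by Ms4a4c in every LPS group. Irf8 led the dendritic cell sum in every group. Csf3r led the neutrophil sum in FLASH M0 and standard M0 libraries, and Ngp in non-irradiated M0 libraries. How much of these sums came from the macrophages themselves was not tested. In bulk RNA, fewer cells of a type and less RNA per cell cannot be told apart, and the part these other marrow cells have in the levels of Ccr2, Ccr7 and Cx3cr1 was not tested.

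The polarizing agents were compared with control medium next. In non-irradiated macrophages LPS, a bacterial lipopolysaccharide sensed through Toll-like receptor 4, lowered Cxcr4, Ccr2 and Cx3cr1, and IL-4, the cytokine of alternative activation, lowered Cx3cr1 and Cxcr4. These were 3 of 5 receptors with LPS, where 7.54% of genes tested fell, and 2 of 5 with IL-4, where 4.9% fell. No receptor rose with LPS or IL-4 in the fit of all 27 libraries, where 9.87% and 4.93% of genes did.

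Cxcr4 had 28.2, 32 and 17.1 CPM in non-irradiated M1 libraries and 27.5, 35.5 and 40.6 CPM in non-irradiated M2 libraries, against 116, 159 and 114 CPM in non-irradiated M0 libraries. Both treated groups were well below the control medium group. Ranges below control medium without overlap were held by Cxcr4, Cx3cr1 and Ccr2 with each agent, and by 22.5% of genes with LPS and 17.8% with IL-4. Cxcr4 fell by 2.34 ± 0.48 with LPS (limma adjusted p = 0.00421) and by 1.89 ± 0.48 with IL-4 (adjusted p = 0.0176). The IL-4 call was lost without replicate 2 of the control medium libraries (0.0716) or replicate 1 of the IL-4 libraries (0.0702).

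Cx3cr1 had 3.54, 4.84 and 5.39 CPM with LPS and 0.84, 1.39 and 1.2 CPM with IL-4, against 16.5, 22.2 and 13.5 CPM in control medium. The 3 groups were fully separated, with IL-4 lowest. With LPS it fell (-1.80 ± 0.51, limma adjusted p = 0.0201), a call lost on leaving out any of 4 of the 6 libraries with adjusted p up to 0.0654. With IL-4 it fell by 3.43 ± 0.51 (adjusted p = 0.00085), and that call held in all 18 alternative fits, where the log2 change was -3.81 to -2.61.

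Ccr2 had 11.1, 8.66 and 7.06 CPM with LPS and 22.7, 17.5 and 11.8 CPM with IL-4, against 35.6, 40.5 and 45.5 CPM in control medium. Neither treated group reached the control medium group. It fell by 2.14 ± 0.40 with LPS (limma adjusted p = 0.00232). With IL-4 the change was -1.25 ± 0.40, just short of the threshold (adjusted p = 0.0505), and it passed without the 5 libraries (0.016) and in 6 other settings.

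Ccr1 had 133, 132 and 105 CPM with LPS, within the 148, 164 and 86.4 CPM of control medium, and a difference of -0.06 ± 0.74. With IL-4 it had 254, 363 and 215 CPM, above every control medium library, as were 17.9% of genes tested. That difference of 1.08 ± 0.74 was not called over all 27 libraries (limma adjusted p = 0.385), where the 5 libraries widen the spread of Ccr1. Without them the same value had a standard error of 0.24 and was called (adjusted p = 0.00292), as were 26% of genes in either direction.

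Ccr7 had 10.3, 5.01 and 8.31 CPM with LPS and 1.33, 2.22 and 0.828 CPM with IL-4, against 2.15, 10.1 and 3.09 CPM in control medium. Control medium replicate 2 reached the LPS level, and control medium replicate 1 was just below the highest IL-4 library. Neither 0.79 ± 0.70 with LPS nor -1.31 ± 0.70 with IL-4 was called (limma adjusted p = 0.455 and 0.246).

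**Figure D3:**
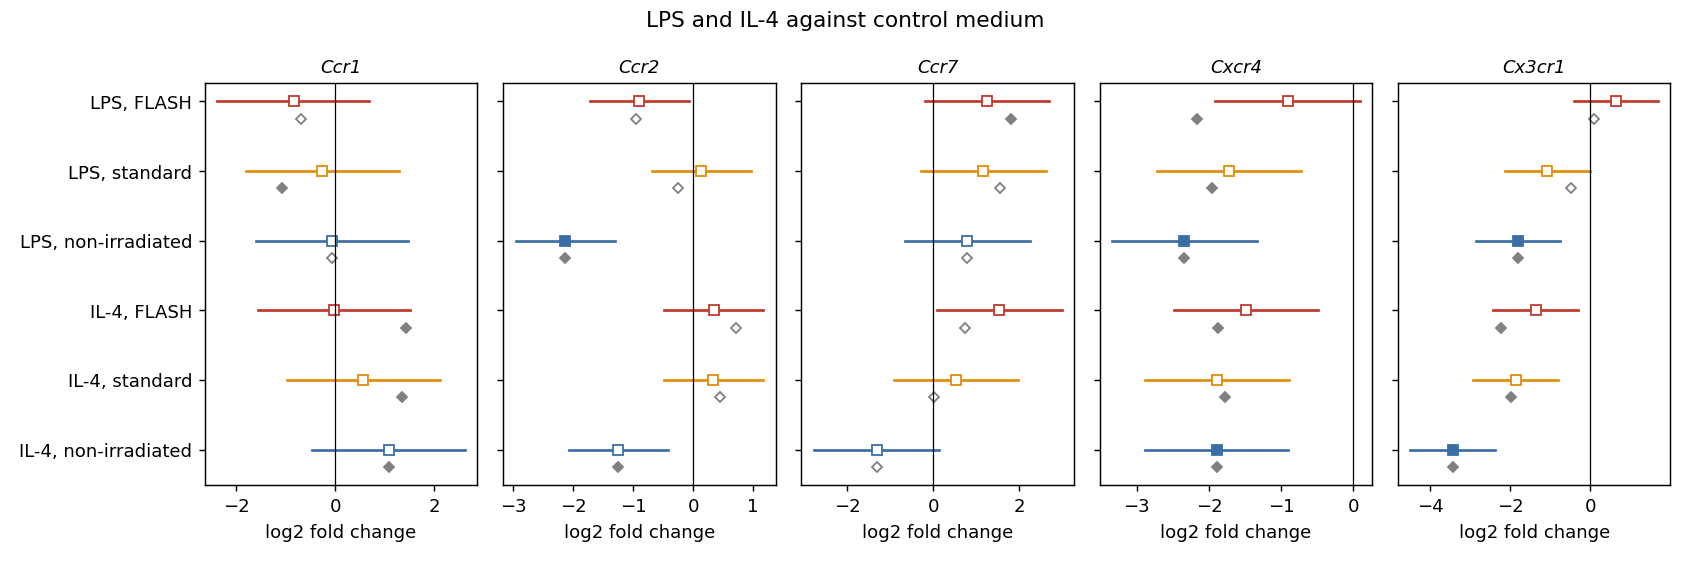
Squares are log2 fold changes of LPS or IL-4 over control medium with 95% intervals from limma over all 27 libraries, within FLASH, standard and non-irradiated macrophages; gray diamonds leave out the 5 libraries and filled symbols passed an adjusted p of 0.05. The Cxcr4 values lie below 0 for both agents in all 3 irradiation groups, and without the 5 libraries all 6 are filled.

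In irradiated macrophages limma called no receptor in any of the 4 comparisons with control medium over all 27 libraries, where 0 genes of 13297 were called in 3 of them and 63 (0.474%) in standard M2. At an unadjusted p below 0.05 limma had 1184 to 2070 genes in the 4. Each of those comparisons includes 1 or 2 libraries at odds with their labels. Without the 5, groups of 2 or 3 libraries remained, and 2 receptors were called with LPS after FLASH (24.6% of genes tested), 2 with LPS after standard protons (23.4%), 3 with IL-4 after FLASH (12%) and 3 with IL-4 after standard protons (14.3%). Cxcr4 had 22.9 and 32.5 CPM in the FLASH M1 libraries that follow their label and 40.1 and 28.3 CPM in FLASH M2, against 102 and 150 CPM in FLASH M0. It fell in all 4, by log2 values of -2.16 with LPS and -1.87 with IL-4 after FLASH and -1.96 and -1.78 after standard protons (limma adjusted p from 8e-05 to 0.000893), close to the non-irradiated changes.

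Ccr1, with the 5 libraries left out, rose with IL-4 by 1.43 after FLASH (limma adjusted p = 0.00405) and by 1.34 after standard protons (0.00267), at 384 and 471 CPM in FLASH M2 and 386 and 479 CPM in standard M2. The libraries labelled FLASH M0 and standard M1 that carry IL-4 response genes had 420 and 441 CPM, within that range. Those labelled FLASH M2 and standard M2 that carry LPS response genes had 55.4 and 85.7 CPM. Ccr1 fell with LPS after standard protons (-1.08, adjusted p = 0.0065) and was not called with LPS after FLASH (-0.68, adjusted p = 0.104). Cx3cr1 fell with IL-4 in both modes (-2.24 and -1.97, adjusted p = 0.002 and 0.00227). Ccr7 rose with LPS after FLASH by 1.81 (adjusted p = 0.0483), a call lost with replicates 2 and 3 only (0.063) or with the replicate block added (0.0731), and its value after standard protons was 1.56 (0.0645).

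**Figure D4:**
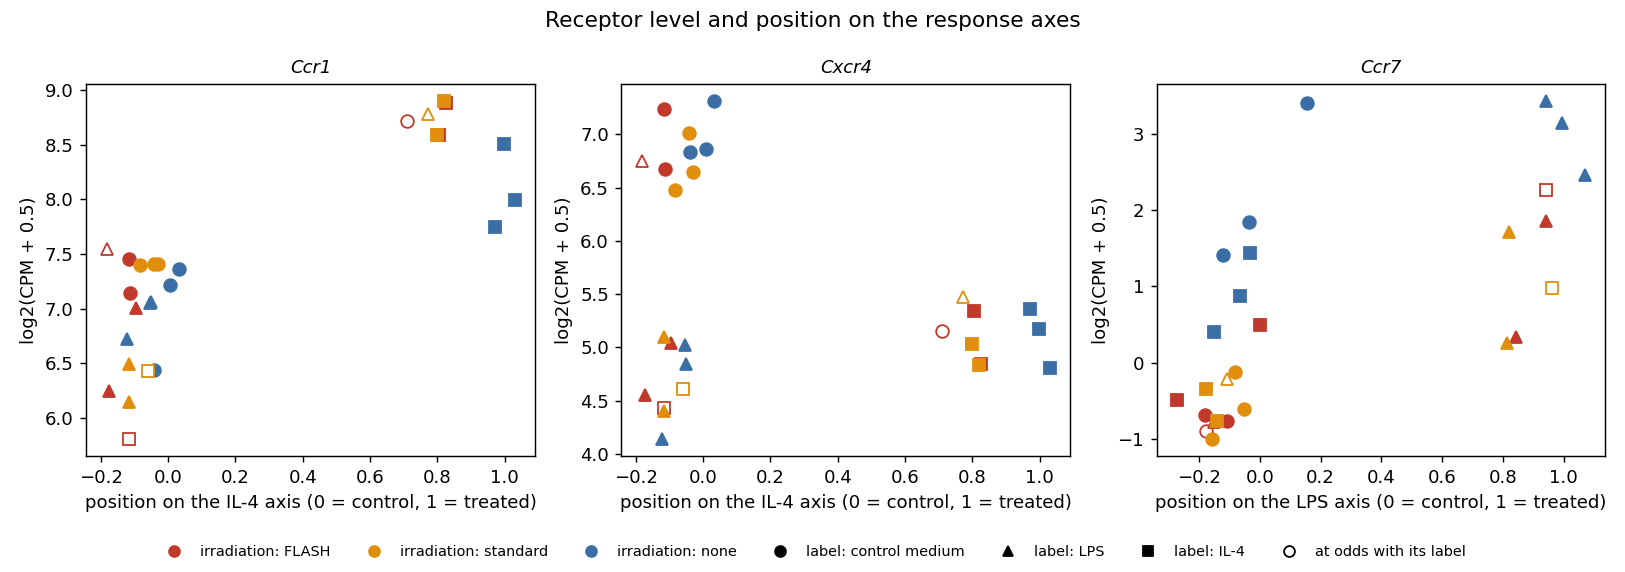
Receptor level as log2(CPM + 0.5) in all 27 libraries against the library's position on the IL-4 axis (Ccr1, Cxcr4) or the LPS axis (Ccr7), where 0 is non-irradiated control medium and 1 the non-irradiated treated group; colors give irradiation, shapes the label, and open symbols the 5 libraries at odds with it. Open symbols lie with the libraries of like axis position rather than like label, Ccr1 is highest at the right, and near 0 Cxcr4 is high (88.4 to 159 CPM) in libraries without the LPS response and low (17.1 to 33.8 CPM) in those with it.

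Whether LPS or IL-4 moved a receptor by a different amount after irradiation was tested as an interaction in limma. The LPS change of Ccr2 was -0.90 ± 0.40 after FLASH and 0.14 ± 0.40 after standard protons, against -2.14 ± 0.40 without irradiation. The difference of these changes was 1.24 ± 0.56 for FLASH (adjusted p = 0.48) and 2.28 ± 0.56 for standard protons (adjusted p = 0.179). For Cx3cr1 with LPS it was 2.44 ± 0.72 after FLASH (adjusted p = 0.244) and 0.73 ± 0.72 after standard protons (0.807). For Cxcr4 with LPS it was 1.43 ± 0.68 and 0.62 ± 0.68 (0.5 and 0.836). With IL-4 it was 1.59 ± 0.56 in each mode for Ccr2 (0.713 and 0.893), and 2.85 ± 0.99 and 1.85 ± 0.99 for Ccr7 (0.703 and 0.893). For Cx3cr1 with IL-4 it was 2.07 ± 0.72 and 1.57 ± 0.72 (0.703 and 0.893). None of the 5 receptors was called in any of the 4 interactions, with or without the 5 libraries. Over all 27 libraries limma called 0 to 16 genes of 13297 in them, 0.12% for FLASH by LPS, 0.0902% for standard protons by LPS and 0% for both IL-4 interactions.

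Ranked by mean level, Ccr2 ran from non-irradiated M0 (40.5 ± 4.95 CPM, SD, n = 3) through non-irradiated M2 (17.3 ± 5.47) and M1 (8.93 ± 2.03) to the 6 irradiated groups (7.11 down to 2.53 CPM). The first 3 were separated in range, and from non-irradiated M1 downward every neighbour in the order overlapped. Cx3cr1 was highest in non-irradiated M0 (17.4 ± 4.46 CPM), apart from standard M0 (7.22 ± 3.01) below it, and lowest in non-irradiated M2 (1.14 ± 0.279), with all neighbours after the first overlapping. For Cxcr4 the 3 control medium groups led, at 130 ± 25.1 CPM without irradiation, 106 ± 20.8 after standard protons and 96.0 ± 57.9 after FLASH, and all neighbours overlapped. Ccr7 ran from 7.88 ± 2.69 CPM in non-irradiated M1 to 0.0853 ± 0.0428 in FLASH M0, also with all neighbours overlapping. Ccr1 was highest in the 3 IL-4 groups (317 ± 206 CPM after standard protons, 304 ± 219 after FLASH, 277 ± 77.1 without irradiation), and the only neighbours apart were standard M0 (169 ± 0.891) and non-irradiated M0 (133 ± 41.0).

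The receptors varied with each other to different degrees. Over the 27 libraries the Pearson correlation of log2(CPM + 0.5) was 0.62 between Cxcr4 and Cx3cr1, 0.43 between Ccr2 and Ccr7 and -0.56 between Ccr1 and Cx3cr1, the other 7 pairs lying between -0.46 and 0.33. Over the 22 libraries that follow their labels these 3 were 0.61, 0.45 and -0.66. Libraries share group, depth and scaling, so these values describe the table only.

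Among 9304 genes averaging 5 CPM or more, predicted models left out, the 5 most like Ccr2 over the 27 libraries were H2-Aa (r = 0.89), Ciita (0.87), H2-Ab1 (0.87), Cd74 (0.86) and Myh9 (0.85). H2-Aa and H2-Ab1 encode MHC class II chains, Cd74 their invariant chain and Ciita their transactivator. Those most like Ccr7 were Plbd1 (0.91), Itgb7 (0.89), Ly6c2 (0.89), Gpr132 (0.88) and Clec2d (0.88). For Ccr1 they were Mmp13 (0.94), a collagenase, Slc36a2 (0.93), Igf1 (0.92), a growth factor, Awat1 (0.92) and Bex1 (0.92). For Cxcr4 they were Pip4k2a (0.94), Cd28 (0.94), Abtb1 (0.92), Rap2a (0.92) and Glul (0.91), the glutamine synthetase. For Cx3cr1 they were Pacs1 (0.87), Sorl1 (0.86), Nfatc2 (0.85), Map3k5 (0.85) and Cdc42ep3 (0.85). Over the 22 libraries 4, 2, 4, 3 and 4 of the 5 names recurred for Ccr1, Ccr2, Ccr7, Cxcr4 and Cx3cr1.

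Ligands of these receptors were called with LPS and not with irradiation in the fit of all 27 libraries. Of 12 listed ligand genes 10 were tested, Ccl19 was near 0 throughout and Ccl21a was not analysed here. In non-irradiated macrophages 5 of 10 rose and 1 fell with LPS, where 9.87% and 7.54% of genes did, with a median log2 change of 3.25 beside -0.01 over all genes tested. Ccl5, a ligand of Ccr1, rose by 6.23 ± 1.96 and had 1890, 2200 and 2350 CPM with LPS, against 23.5, 45.6 and 20.2 CPM in control medium (limma adjusted p = 0.0334). Ccl8 rose by 5.59 ± 1.16 and Ccl12 by 5.43 ± 1.41 (adjusted p = 0.00449 and 0.0141). The Ccr2 ligands Ccl7 (4.80) and Ccl2 (3.95) were the others that rose. Cx3cl1, the ligand of Cx3cr1, fell by 1.42 ± 0.33 with LPS, at 3.12, 3.61 and 2.07 CPM against 7.17, 8.76 and 9.7 CPM (adjusted p = 0.00834), as its receptor did. Cxcl12, the ligand of Cxcr4, was not called (-1.97, adjusted p = 0.149). Over all 27 libraries each of the 10 missed the threshold in the IL-4 comparison and in the mean of the states after FLASH or standard protons, with median changes of 0.46, -0.18 and -0.08. With the 5 libraries left out 6 rose and 1 fell with LPS (17.9% and 16.8% of genes), and 4 rose with IL-4 with 0 lower (13.2% and 12.8%). Those 4 were Ccl9 (1.44, limma adjusted p = 0.000977), a Ccr1 ligand, Ccl7 (1.58, 0.00517), Ccl8 (1.49, 0.0114) and Ccl2 (1.40, 0.0477). In the same fit 2 ligands fell after FLASH and 1 after standard protons, Ccl8 in both (-1.33 and -1.29, adjusted p = 0.00248 and 0.00196) and Ccl5 after FLASH (-0.61, 0.0484). Of all genes 6.96% fell after FLASH and 9.81% after standard protons in the mean of the states of that fit.

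Of 24 other chemokine and chemoattractant receptors on the list, 14 were tested. In the mean of the states 4 fell after FLASH and 5 after standard protons, with 0 higher, beside 4.47% and 4.52% of all genes. After the 5 libraries were removed 2 rose and 5 fell after FLASH, and 1 rose and 6 fell after standard protons. In that fit 7.34% of all genes rose and 6.96% fell after FLASH, and 8.11% rose and 9.81% fell after standard protons. Ccr9, a receptor for Ccl25, fell (-1.64 ± 0.23 and -1.72 ± 0.23, limma adjusted p = 8.25e-05 and 4.87e-05), and in control medium it had 0.395, 0.124 and 0.23 CPM after FLASH and 0.0467, 0.201 and 0 CPM after standard protons, against 1.65, 5.37 and 3.09 CPM without irradiation. Ltb4r1, a leukotriene B4 receptor, fell (-1.70 and -1.65, adjusted p = 0.0167 and 0.0189), and Cxcr6, the receptor for Cxcl16, too (-1.25 and -1.24, 0.0104 and 0.011). Cxcr2, a neutrophil receptor, fell after standard protons (-1.41, 0.0426). The medians over the 14 were -0.28 and -0.21, beside -0.01 over all genes in each mode.

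With LPS 3 of the 14 rose and 0 fell, beside 9.87% and 7.54% of all genes, namely Ccrl2 (1.84), an atypical receptor that presents chemerin, Cmklr1 (1.08), the signaling chemerin receptor, and C3ar1 (0.74), the complement C3a receptor. With IL-4 4 of 14 fell and 0 rose, beside 4.9% and 4.93% of all genes, namely C5ar1 (-2.77), the complement C5a receptor, Cxcr3 (-2.47), Cmklr1 (-1.99) and Ccr9 (-1.90). In the 22 libraries that follow their labels 7 rose and 1 fell with LPS, beside 17.9% and 16.8% of genes, and 2 rose and 6 fell with IL-4, beside 13.2% and 12.8%. Cmklr1 thus had 225, 172 and 195 CPM with LPS and 25.7, 24 and 19.6 CPM with IL-4, against 90, 101 and 86.9 CPM in control medium, the 3 groups apart. The formyl peptide receptor Fpr1 had 240, 313 and 242 CPM with LPS against 5.29, 20.4 and 3.7 CPM in control medium, yet was not called over all 27 libraries (5.04 ± 1.95, limma adjusted p = 0.0765) and was called without the 5 (4.97e-07). It is named after its values were seen.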

How the data were processed

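RNA from 27 libraries in 9 groups was quantified by the authors. The deposited values are a signal, gene counts scaled to library size (CPM) with TMM factors, made per the submitters' processing notes with kallisto 0.46.1, R 4.0.5 and edgeR 3.36.0. Those notes name a human build, GRCh38, for mouse cells, and the annotation is not given in the sources used here. Values were not all whole reads, so no count test was run. Depth was recovered from the step of 1 read. Of the 19069 named genes, 13297 had at least 1 CPM in at least 3 libraries. limma 3.58.1 (R 4.3.3, statmod 1.5.0) was fitted to log2(CPM + 0.5) as 9 group means over the 27 libraries, with a variance trend and robust moderation, for 22 comparisons, each adjusted over all genes tested by Benjamini-Hochberg at 0.05. The fit was also run on simulated data with planted changes. Their noise was independent between libraries and had the spread of the 22 libraries that follow their labels. That run therefore does not cover the spread that the other libraries add to the reported fit. Intervals on reads and means are at 95%.

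The receptors and gene lists were chosen with earlier results of these data known. All 5 receptors were tested in each comparison, and not every value is printed for the interactions and for LPS and IL-4 in irradiated macrophages. From the lists of ligands, other receptors and signaling genes, up to 3 called genes per direction with the largest changes are named, and ligands may be named with their receptor. Fpr1, Ly6c2, Kmo, and Ccr9 and Cxcr6 where 4th in size, are named outside that rule, after their values were seen. Same-numbered libraries share a title code of unstated meaning. Their deviations from the group means correlated at r of -0.85 to 0.78 (median -0.10) over the 108 same-numbered pairs. Over the 216 pairs of different number r was -0.69 to 0.71 (median 0.05). Same-numbered pairs had -0.59 to 0.52 over the 72 with number 2 or 3 and -0.13 to 0.10 over the 9 non-irradiated ones. Non-irradiated pairs of different number had -0.12 to 0.13. The number was used as a block only in an alternative. Alternatives covered the pseudocount, the filter, the scaling, the variance trend, the groups fitted, a replicate block, the 5 libraries and each library left out. Promoters came from RefSeq, build GRCm38.p6. The Ccr7 promoter and the proteins were not used here. Some genes of the lists are counted but not reported singly here.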

Additional observations from a re-analysis of the deposited data

How the results depend on the processing

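Over the 30 alternatives for the mean of the 3 states, the calls of Ccr2 and Ccr7 in both beam modes held, Ccr2 at -2.04 to -1.65 after FLASH and -2.03 to -1.63 after standard protons, and Ccr7 at -2.72 to -1.08 and -2.87 to -1.19. Of 1458 single values under an alternative, 1319 kept their direction and side of the threshold. Equal library totals moved the median of all genes by up to 0.185 (log2) and median-of-ratios scaling by up to 0.0239.

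Without the 5 libraries at odds with their labels, 2 receptors were called with LPS after FLASH, 3 with IL-4 after FLASH, 2 with LPS after standard protons and 3 with IL-4 after standard protons, each against 0 with all 27, and 4 with IL-4 without irradiation, against 2. In that order, 24.6%, 12%, 23.4%, 14.3% and 26% of all genes tested were called in that fit. Over all 27 libraries 0, 0, 0, 63 and 1307 genes of 13297 were called. With replicates 2 and 3 only, the receptor counts in the same order were 1, 3, 2, 3 and 4, and the 1 call with standard protons in IL-4 became 0. With the compared groups alone, 1 receptor was called with IL-4 after standard protons, 4 with IL-4 without irradiation, and 0 in the FLASH comparison in LPS and the standard comparison in IL-4. A pseudocount of 2 gave 2 calls for FLASH in LPS, against 1, and 1 for standard protons in LPS, against 0. A filter of 5 CPM left 1 of 2 calls for standard protons in control medium. A pseudocount of 0.1, no filter, median-of-ratios scaling and no variance trend each left 0 of 1 for standard protons in IL-4. The cause of these changes was not tested. For the other alternatives, here and below, the share of all genes called was not worked out. Their receptor counts therefore cannot be set beside all genes and are no result about the receptors as such.

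The replicate block left 0 of 1 call for FLASH in LPS, 1 of 2 for standard protons in control medium, and 0 of 1 for standard protons in IL-4, and ended the FLASH call of Cx3cr1 in control medium (adjusted p = 0.0531). It ended no other receptor call. What the number and its title code mark is not stated. With the 5 libraries also left out, the block gave 1, 3, 2, 3 and 4 calls for the polarization comparisons in the order above and 0 for standard protons in IL-4.

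Leaving out 1 library at a time gave 0 to 1 calls for IL-4 after FLASH, 2 to 3 for LPS and 1 to 2 for IL-4 without irradiation, 1 to 2 for FLASH in control medium (against 3), 0 to 1 for FLASH in LPS, 1 to 2 for standard protons in control medium, and 0 to 1 for standard protons in LPS and in IL-4.

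Values that changed sign were uncalled. Ccr1 was 0.07 with equal totals for FLASH in LPS. Without the 5 libraries, with replicates 2 and 3 only, and without the 5 with the block, Ccr1 was 0.65, 0.61 and 0.68 for FLASH in IL-4, -0.62, -0.56 and -0.59 for standard protons in LPS, 0.67, 0.62 and 0.70 for standard protons in IL-4, and 0.06, 0.06 and 0.07 for FLASH minus standard in the mean. Cx3cr1 was -0.10 for FLASH in LPS with replicates 2 and 3. Without the 5 libraries, and then with the block too, Cx3cr1 was 0.05 and 0.03 for standard protons in LPS, Cxcr4 was 0.02 and 0.03 for FLASH in the mean, and Ccr2 was 0.11 and 0.10 for FLASH minus standard. A pseudocount of 2 gave 0.01 for Ccr7 and 0.04 for Cx3cr1 for FLASH in IL-4, and -0.03 and -0.09 for the Ccr7 interactions of FLASH and standard protons with LPS.

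With 1 library left out, signs also changed for Ccr1 with LPS without irradiation (-0.34 to 0.12), for FLASH in LPS (-0.32 to 0.33), in IL-4 (-0.89 to 0.65) and in the mean (-0.04 to 0.47), for standard protons in LPS (-0.62 to 0.70), in IL-4 (-0.57 to 0.67) and in the mean (-0.11 to 0.42), and for FLASH minus standard (-0.28 to 0.30). They changed for Ccr7 and Cx3cr1 for FLASH in IL-4 (-0.90 to 0.47 and -0.66 to 0.48), Cx3cr1 for standard protons in LPS (-1.03 to 0.05), and Cxcr4 in the FLASH mean (-0.25 to 0.16) and standard mean (-0.17 to 0.01). For FLASH minus standard they changed for Ccr2 (-0.18 to 0.11), Ccr7 (-0.09 to 0.37), Cxcr4 (-0.17 to 0.25) and Cx3cr1 (-0.33 to 0.05), and for the Ccr7 interactions with LPS (-0.23 to 1.08 for FLASH, -0.23 to 0.77 for standard protons). Low reads limit Ccr7.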

Other observations

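Of 30 listed G proteins, regulators of G protein signaling, receptor kinases, arrestins and related genes 29 were tested. In non-irradiated macrophages 2 rose and 3 fell with LPS, beside 9.87% and 7.54% of all genes, with a list median of -0.07 beside -0.01 over all genes. Rgs1, which speeds the shutdown of G alpha subunits, rose by 1.96 ± 0.46 with LPS (limma adjusted p = 0.00862), at 147, 253 and 179 CPM with LPS against 77.9, 30.6 and 46.5 CPM in control medium. Rgs10, of the same protein family, fell by 1.44 ± 0.32 with LPS (adjusted p = 0.00625), at 37.5, 27.2 and 44.1 CPM against 96.6, 88.9 and 109 CPM. Neither pair of groups overlapped. Gnb1, a G beta subunit, rose by 0.75, and Arrb1, an arrestin, and Grk5, a receptor kinase, fell (-1.10 and -0.72). With IL-4 1 rose, Gnai3 (0.67), an inhibitory G alpha subunit, and 2 fell, Gng2 (-1.43), a G gamma subunit, and Grk6 (-0.55), beside 4.93% and 4.9% of all genes. With the 5 libraries at odds with their labels left out 7 rose and 6 fell with LPS (17.9% and 16.8% of genes), and 5 rose and 13 fell with IL-4 (13.2% and 12.8%).

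Grk6, a kinase that phosphorylates activated receptors, was the signaling gene that fell with both beam modes in the mean of the states, at -0.43 ± 0.10 after FLASH and -0.37 ± 0.10 after standard protons (limma adjusted p = 0.00803 and 0.0209). In control medium it had 21.6, 30.7 and 26.1 CPM after FLASH and 29.4, 24.4 and 31.4 CPM after standard protons, against 42.2, 48 and 43.6 CPM without irradiation, without overlap. Rac1, a small GTPase of cell movement, fell by 0.22 after FLASH (adjusted p = 0.0182), with -0.14 after standard protons (0.139). Rgs18 rose by 0.44 after standard protons (0.0406), with 0.31 after FLASH (0.166). In all, 2 of 29 fell after FLASH, and 1 rose and 1 fell after standard protons, with medians of -0.06 and -0.09. Of all genes tested 4.47% fell and 433 of 13297 rose after FLASH, and 4.52% fell and 447 rose after standard protons. In the 22 libraries that follow their labels 2 rose and 4 fell in each mode. Beside them 7.34% of all genes rose and 6.96% fell after FLASH, and 8.11% rose and 9.81% fell after standard protons.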
